A study of Canis lupus familiaris with 34 samples.

Results

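Transcription factors that build the heart and its valves were examined in mitral valves of 34 Cavalier King Charles Spaniels. The list holds 9 genes, namely TBX20, TBX5, TBX2, TBX18, GATA4, GATA5, GATA6, HAND2 and NKX2-5, among 22035 gene symbols counted in these dogs. They were taken by symbol, and where a symbol had both a canine RefSeq feature and a human alignment, the canine feature was used. All dogs were privately owned, and the paper describes them as about 10 years old. Its ages varied by several years within both groups, and age was not part of any test here. The 19 dogs called 10y-noCHF had no congestive heart failure (CHF), although most of them had milder stages of myxomatous mitral valve disease (MMVD), and the 15 dogs called 10y-MMVD-CHF had MMVD that had progressed to CHF. The first group had 10 females and 9 males, and the second had 6 females and 9 males. Each dog gave 1 valve and 1 library. A response to diuretics was part of how CHF was diagnosed, so CHF and such treatment cannot be told apart here. The comparison between the groups asks which genes differ in valves of dogs whose disease had gone on to CHF.

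These proteins bind DNA and act together in the embryonic heart. NKX2-5, GATA4 and TBX5 are partners in switching on the genes of heart muscle cells, and TBX20 and HAND2 belong to the same network in muscle and in the cells that line the heart. Valves arise from endocardial cushions, where the lining cells turn into mesenchyme, and TBX20, TBX2, GATA4, GATA5 and GATA6 all have roles in cushions. TBX2 is a repressor that keeps the atrioventricular canal from becoming chamber muscle. TBX18 is a factor of the epicardium, the sinus node region and pericytes. In an adult valve leaflet most cells are interstitial cells, and a strip of atrial muscle may reach into its base.

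All 9 genes passed the minimum sum of 100 counts that was applied to all features, and 8 of them had counts in each of the 34 dogs. Total counts per dog were between 46185256 and 82361245. Levels are given as CPM, the share of a library taken by a feature, with library sizes scaled by edgeR. GATA4 and NKX2-5 were counted over canine exons. The other 7 were counted over the whole span of an aligned human gene, introns included, so levels of different genes are not compared here. Both reads of a pair were counted, so 1 fragment can give 2 counts, and no strand was used.

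In the annotation of UU_Cfam_GSD_1.0 (canFam4), TBX20 lies on chromosome 14 from 46994716 to 47045430 and TBX5 on chromosome 26 from 11794191 to 11881084. TBX2 is on chromosome 9 from 35202696 to 35211975, and TBX18 is on chromosome 12 from 45119019 to 45147578. GATA4 and HAND2 share chromosome 25, at 26283313 to 26334650 and 24290187 to 24293030. GATA5 is on chromosome 24 from 47266944 to 47277059, GATA6 on chromosome 7 from 65985181 to 66017395 and NKX2-5 on chromosome 4 from 40130495 to 40133809. The counted GATA5 feature lies inside a feature named for HRH3. The HAND2 feature shares 1518 bases, 40.1% of its length, with the antisense gene HAND2-AS1, and reads of these genes cannot be told apart there.

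The valve label was checked with marker genes. Mean log2 CPM of 8 interstitial cell markers (VIM, DCN, LUM, PDGFRA, COL1A1, COL3A1, POSTN and FBLN1) was between 10.2 and 11.4 in every dog. The mean of 19 cardiomyocyte markers ranged far more, from -0.50 in CAV749 to 10.5 in CAV1047. It overlapped between the groups, with 5.68 ± 3.33 (SD, n = 19) in 10y-noCHF and 6.05 ± 2.87 (SD, n = 15) in 10y-MMVD-CHF. In such bulk samples fewer cells of a type and less RNA per cell cannot be told apart. Among the 10y-MMVD-CHF dogs, CAV1047 had the highest cardiomyocyte marker mean and CAV614 the highest red blood cell marker mean of all dogs (5.48), and results were also computed without these 2 dogs. The part of these cell types in the CHF comparison was not tested beyond the fits that hold the cardiomyocyte marker mean.

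None of the 9 genes passed the test between dogs with and without CHF. With edgeR's quasi-likelihood test, sex as a fixed effect and an adjusted p below 0.1, 0 of 9 were called, against 0.118% of all 19568 features (0.0256% higher and 0.092% lower with CHF). At an unadjusted p below 0.05 edgeR gave 1 of 9, TBX18, against 6.31% of all features. Neither DESeq2 nor limma voom called any of the 9. Over all features DESeq2 called 15 higher and 49 lower, and limma voom 9 higher and 16 lower. The median log2 fold change of the 9 was 0.10, beside 0.0076 over all features, and it was -0.01 without CAV614 and CAV1047.

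TBX18, the epicardial and pericyte factor, had the smallest p. In 10y-noCHF dogs its level ran from 54.8 CPM in CAV748 through a median of 91.0 to 135 CPM in CAV1939. In 10y-MMVD-CHF dogs it ran from 43.5 CPM in CAV1047 through a median of 116 to 177 CPM in CAV1196. The ranges overlapped, but 6 of the 15 10y-MMVD-CHF dogs lay above every 10y-noCHF dog. They were CAV1196, CAV1259, CAV1872, CAV1519, CAV487 and CAV2156, with 177, 174, 171, 162, 157 and 149 CPM. Their cardiomyocyte marker means, in the same order, were 0.89, 6.25, 3.91, 5.74, 2.76 and 3.36, all below the group median of 7.19. CAV614, with a marker mean of 1.82, had 114 CPM, and only CAV1047 lay below all 19 of the other group. The log2 fold change was 0.41 (SE 0.15, approximate 95% interval 0.11 to 0.71), with an edgeR adjusted p of 0.607. A permutation test of mean log2 CPM within each sex (100000 resamples, two-sided) gave a difference of 0.35 and an unadjusted p of 0.0437. The same permutation test gave every other factor an unadjusted p between 0.0728 (TBX2) and 0.945 (GATA6). TBX18 was singled out by its edgeR p in these same dogs, so its permutation p is not separate support. The fold change was 0.41 (SE 0.12) with the cardiomyocyte marker mean as a covariate, where the adjusted p was 0.300 and 0.153% of all features were called. It was 0.49 without CAV614 and CAV1047 (adjusted p = 0.297), and the adjusted p lay between 0.297 and 0.652 over the alternatives that did not leave out single dogs. With single dogs left out it lay between 0.256 (without CAV1047) and 0.847 (without CAV1519). Of 6 pericyte markers none was called with CHF, against 0.118% of all features, and RGS5 had 0.58 (SE 0.20, adjusted p = 0.556) beside a median of 0.17. The mean of the 6 ran from 2.95 to 4.86 in 10y-noCHF and from 2.88 to 4.90 in 10y-MMVD-CHF. Of 6 epicardial or mesothelial markers 3 were tested and none was called, with -0.29 for UPK3B, -0.27 for WT1 and -0.46 for TCF21. Their mean ran from 1.17 to 2.50 in 10y-noCHF and from 0.35 to 2.46 in 10y-MMVD-CHF, and the part of these cells in the TBX18 values was not tested.

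The other T-box factors were closer to equal. TBX20, which valves and heart muscle both need, had 75.6 to 335 CPM with a median of 137 in 10y-noCHF and 52.2 to 288 CPM with a median of 144 in 10y-MMVD-CHF. Its log2 fold change was 0.04 (95% interval -0.34 to 0.42, adjusted p = 0.989). TBX2 had 5.55 to 12.7 CPM with a median of 9.87 in 10y-noCHF, and 8.29 to 15.7 CPM with a median of 10.8 in 10y-MMVD-CHF. The 4 lowest dogs were all 10y-noCHF and the 2 highest were the 10y-MMVD-CHF dogs CAV1047 and CAV614, with 15.7 and 13.98 CPM, and all others were in the shared range. The log2 fold change of TBX2 was 0.17 (95% interval -0.02 to 0.36, adjusted p = 0.824), and it was 0.09 without these 2 dogs (adjusted p = 0.842). TBX5, the partner of NKX2-5 and GATA4, had 26.9 to 150 CPM with a median of 42.9 in 10y-noCHF and 29.01 to 241 CPM with a median of 49.2 in 10y-MMVD-CHF. Only CAV1047 among dogs with CHF exceeded the range of the other group. The log2 fold change of TBX5 was 0.17 (95% interval -0.41 to 0.74, adjusted p = 0.964), and it was -0.14 without CAV1047.

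None of the GATA factors passed either. GATA4 had 24.3 to 43.7 CPM with a median of 33.3 in 10y-noCHF and 28.2 to 47.3 CPM with a median of 33.2 in 10y-MMVD-CHF. Its log2 fold change was 0.10 (95% interval -0.05 to 0.26, adjusted p = 0.890), and the human alignment of GATA4, which takes in introns, gave 0.05. GATA6 had 99.1 to 196 CPM with a median of 155 in 10y-noCHF, and 125 to 187 CPM with a median of 149 in 10y-MMVD-CHF. The dogs with CHF lay inside the range of the others, and the log2 fold change of GATA6 was -0.02 (95% interval -0.18 to 0.14, adjusted p = 0.986). GATA5, an endocardial and epicardial factor, had 6.87 to 24.96 CPM with a median of 17.1 in 10y-noCHF and 8.62 to 23.01 CPM with a median of 15.2 in 10y-MMVD-CHF. Its log2 fold change was -0.05 (95% interval -0.36 to 0.25, adjusted p = 0.980).

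HAND2, a basic helix-loop-helix factor of cushions and heart muscle, had 23.7 to 61.8 CPM with a median of 34.7 in 10y-noCHF. In 10y-MMVD-CHF it had 28.6 to 70.3 CPM with a median of 33.4. Only CAV1047 lay above and 2 dogs lay below the range of the opposite group, with a log2 fold change of 0.08 (95% interval -0.16 to 0.32, adjusted p = 0.961). NKX2-5, the homeodomain factor of heart muscle, spread the most. It had 0 to 23.1 CPM with a median of 2.82 in 10y-noCHF and 0 to 38.96 CPM with a median of 2.28 in 10y-MMVD-CHF. Its log2 fold change was 0.36 (95% interval -1.25 to 1.97, adjusted p = 0.972), so changes within this interval, in either direction, were not resolved. Without CAV1047 the value was -0.49. The biological coefficient of variation of NKX2-5 was 1.59, above that of 97.5% of all features, whereas those of GATA4 and GATA6 were 0.17, above 29.7% and 31.3% of features.

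**Figure D1:**
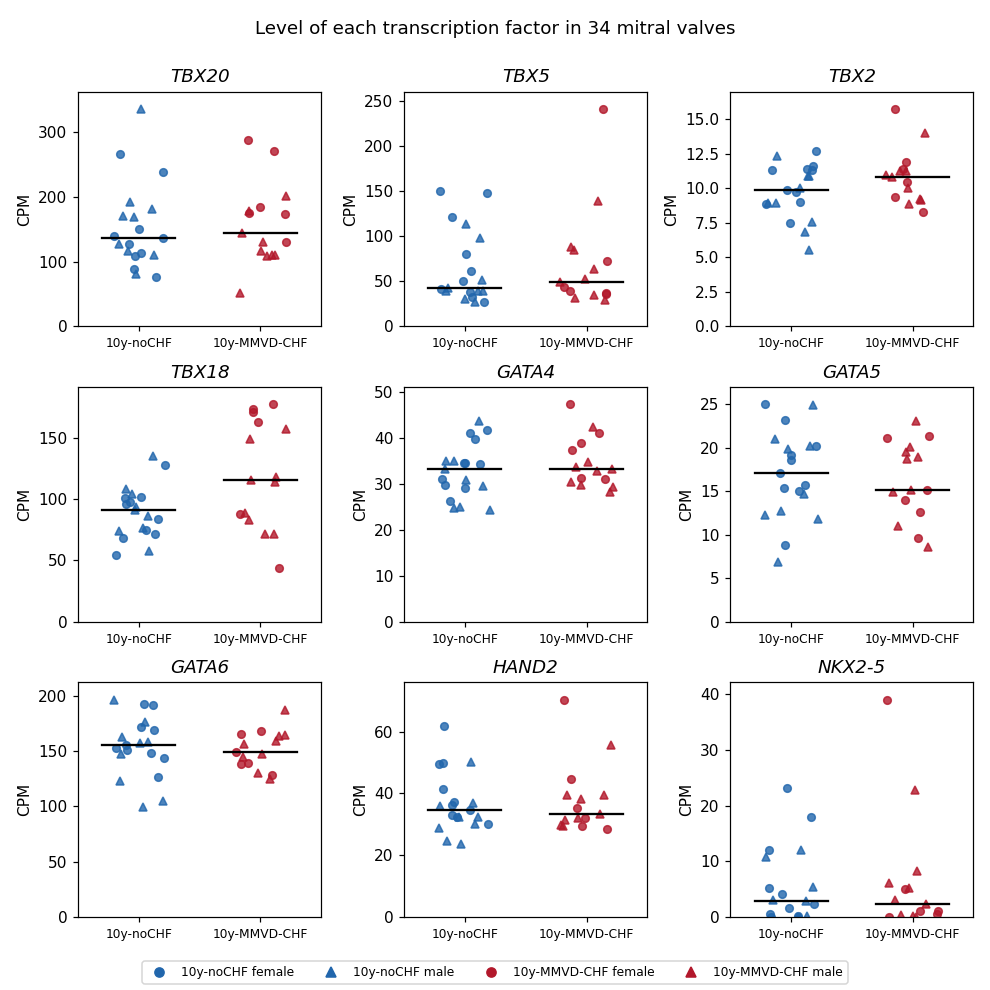
CPM of each factor in each of the 34 dogs, by group (blue, 10y-noCHF; red, 10y-MMVD-CHF; circles, females; triangles, males), with the group median as a black bar. The groups overlap in every panel, 6 dogs with CHF lie above all others for TBX18, and CAV1047 is the highest dog for TBX5, TBX2, HAND2 and NKX2-5.

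Whether the CHF difference itself depended on sex was tested with the interaction of group and sex. No factor passed (0 of 9, edgeR), nor did any of 19568 features (percent called 0, with 1178 at an unadjusted p below 0.05), while DESeq2 called 3 features and limma voom 0, with none of the 9 among them. TBX20 came closest. In females it had 75.6 to 266 CPM with a median of 132 without CHF and 129.8 to 288 CPM with a median of 179.8 with CHF. In males it had 81.1 to 335 CPM with a median of 168 without CHF and 52.2 to 202 CPM with a median of 117 with CHF. So the medians were ordered in opposite ways, with overlapping ranges in both sexes. The log2 fold change of TBX20 was 0.49 (SE 0.27) in females and -0.36 (SE 0.25) in males, and the difference of 0.85 (SE 0.37) had an edgeR adjusted p of 0.815. The difference was 0.62 without CAV614 and CAV1047.

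TBX18 had a log2 fold change with CHF of 0.63 (SE 0.22, edgeR adjusted p = 0.312) in females and 0.23 (SE 0.21, adjusted p = 0.9999) in males. The difference between the sexes was 0.40 (SE 0.31, adjusted p = 0.908). None of the 9 was called within females, where no feature was (percent called 0, with 2065 at an unadjusted p below 0.05), or within males, where 0.0153% of features were called, all of them lower with CHF. Of the 6 females with CHF only CAV1047, at 43.5 CPM of TBX18, was below 87.4 CPM. No factor passed the test between females and males, with 0 of 9 called against 0.143% of all features. The smallest unadjusted p was that of GATA4, with 0.17 higher log2 CPM in females (SE 0.08) and an edgeR adjusted p of 0.9997. At an unadjusted p below 0.05 edgeR gave 1 of 9 here, beside 583 of 19568 features. DESeq2 and limma voom also called 0 of 9. Over all features DESeq2 called 31 higher and 6 lower in females, and limma voom 30 higher and 0 lower.

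**Figure D2:**
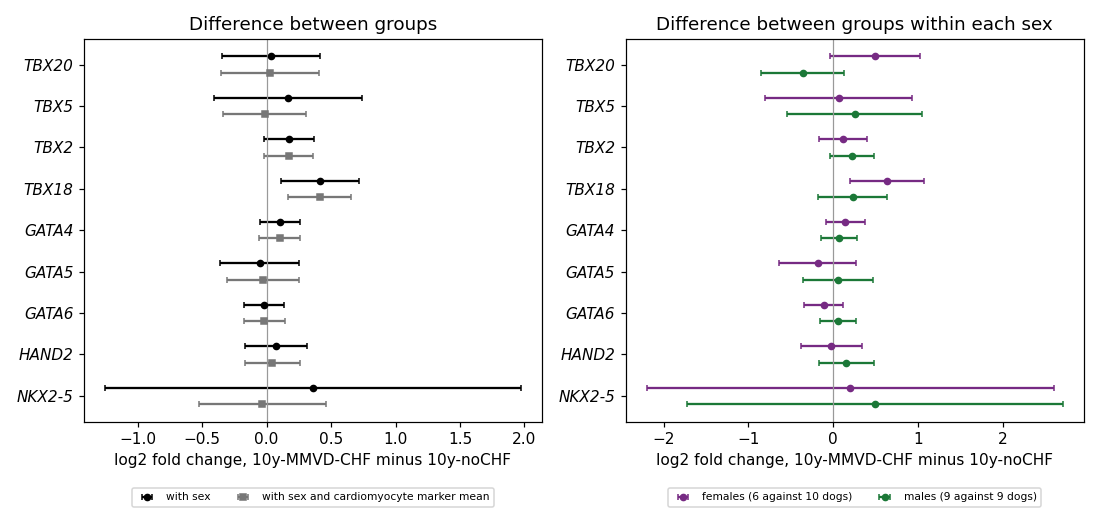
Log2 fold change of each factor between 10y-MMVD-CHF and 10y-noCHF, with approximate 95% intervals. Left, all 34 dogs without (black circles) and with (grey squares) the cardiomyocyte marker mean in the fit, which narrows the interval of NKX2-5. Right, females (purple) and males (green), where TBX20 is 0.49 in females and -0.36 in males.

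Several factors varied with the amount of heart muscle RNA in the sample. Each factor was tested in edgeR for its change in log2 CPM per unit of the cardiomyocyte marker mean, with group and sex in the fit. A slope of 1 means that the factor doubles whenever the markers double. The markers hold none of the 9 genes, but both come from the same libraries. Of the 9 factors 5 passed, 3 that rose with the marker mean and 2 that fell, beside 37.7% of all features (19.1% higher and 18.6% lower). The split over all features was 3192 higher and 5211 lower with upper-quartile scaling, and the same 5 factors passed there in the same directions.

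NKX2-5 rose in step with muscle. It had 0 counts in CAV749, CAV1196 and CAV1939, whose marker means of -0.50, 0.89 and 0.99 were among the 4 lowest. A count of 0 allows up to 3 counts, or 0.0386 to 0.0503 CPM in these libraries. It reached 23.1 CPM in CAV1731 and 38.96 CPM in CAV1047, whose marker means were 9.27 and 10.5. The slope was 1.001 (SE 0.05, edgeR adjusted p = 4.51e-19), and it was 1.002 in 10y-noCHF dogs alone (SE 0.05) and 1.001 in 10y-MMVD-CHF dogs alone (SE 0.08). The human alignment of the gene gave 0.85 (SE 0.04).

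TBX5, counted over a span that takes in introns, rose too, and it was present in the dogs with the fewest muscle markers. It had 27.3 CPM in CAV749, the dog with the lowest marker mean, and 39.1 CPM in CAV1196. It had 98.4 CPM in CAV865, 147.6 CPM in CAV1114, 150 CPM in CAV1731 and 241 CPM in CAV1047, the 4 dogs with the highest marker means. The slope was 0.23 (SE 0.03, adjusted p = 9.44e-09), 0.21 in 10y-noCHF and 0.26 in 10y-MMVD-CHF dogs alone. A squared term of the marker mean, added after the plots had been seen, was 0.05 (SE 0.0062, adjusted p = 4.26e-07), which means that TBX5 climbed more steeply where the markers were high. Squared terms passed for 4 of 9 factors (3 higher, 1 lower) beside 21.8% of all features (14.7% higher, 7.08% lower), and for TBX5 and HAND2 alone without CAV614 and CAV1047. For NKX2-5 the squared term was 0.0010 (SE 0.06, adjusted p = 0.993).

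HAND2 rose slightly, with a slope of 0.05 (SE 0.02, adjusted p = 0.0183) and a squared term of 0.02 (SE 0.0057, adjusted p = 0.0044). It had 70.3 CPM in CAV1047, 61.8 CPM in CAV1731 and 55.7 CPM in CAV373, against 24.7 CPM in CAV749, yet CAV1196, with few muscle markers, had 44.7 CPM. The call was lost with ventricular markers alone (0.06, adjusted p = 0.101), in 10y-noCHF dogs alone (0.04, adjusted p = 0.207) and in 10y-MMVD-CHF dogs alone (0.07, adjusted p = 0.112). The ventricular markers tested were MYL2, MYL3, MYH7 and HEY2, and HEY2 itself fell with the cardiomyocyte marker mean (slope -0.06). HAND2-AS1, which overlaps HAND2 in part, had a slope of 0.09 (adjusted p = 0.00014). TBX5-AS1 shares only 125 bases with TBX5, and its slope of -0.02 did not pass (adjusted p = 0.645).

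TBX18 and GATA5 fell as muscle markers rose. TBX18 had 177 CPM in CAV1196, where the marker mean was 0.89, and 43.5 CPM in CAV1047. Its slope was -0.09 (SE 0.02, adjusted p = 0.0014), of similar size to those of the interstitial markers, whose median slope was -0.07. Of these markers 7 of 8 were called lower, against 18.6% of all features. In 10y-MMVD-CHF dogs alone the slope was -0.15 (SE 0.04, adjusted p = 0.0089), and in 10y-noCHF dogs alone -0.05 (SE 0.02, adjusted p = 0.132). The difference between these slopes, -0.10 (SE 0.04), did not pass (adjusted p = 0.703).

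GATA5 had a slope of -0.06 (SE 0.02, adjusted p = 0.0449). Its lowest values were 6.87 CPM in CAV865 and 8.62 CPM in CAV648, with marker means of 9.46 and 8.70, and CAV494 was highest at 24.96 CPM. The call was lost without CAV614 and CAV1047 (-0.05, adjusted p = 0.114), in 10y-noCHF dogs alone (-0.06, adjusted p = 0.237) and in 10y-MMVD-CHF dogs alone (-0.08, adjusted p = 0.105).

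TBX20, TBX2, GATA4 and GATA6 did not pass, with slopes of 0.02 (95% interval -0.04 to 0.08), 0.01 (-0.02 to 0.04), -0.00038 (-0.03 to 0.02) and -0.0076 (-0.03 to 0.02). Those of TBX20, TBX2 and GATA4 changed sign under some alternatives. TBX20 spread widely among dogs with low marker means, which held both its highest dog, CAV1939 with 335 CPM, and its lowest, CAV614 with 52.2 CPM. The dogs between them there were CAV1196 with 271, CAV1049 with 181, CAV749 with 127 and CAV494 with 75.6 CPM. At the highest marker mean CAV1047 had 288 CPM. The squared term of TBX20 was 0.03 (SE 0.01, adjusted p = 0.0443) and did not pass without CAV614 and CAV1047 (adjusted p = 0.124).

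**Figure D3:**
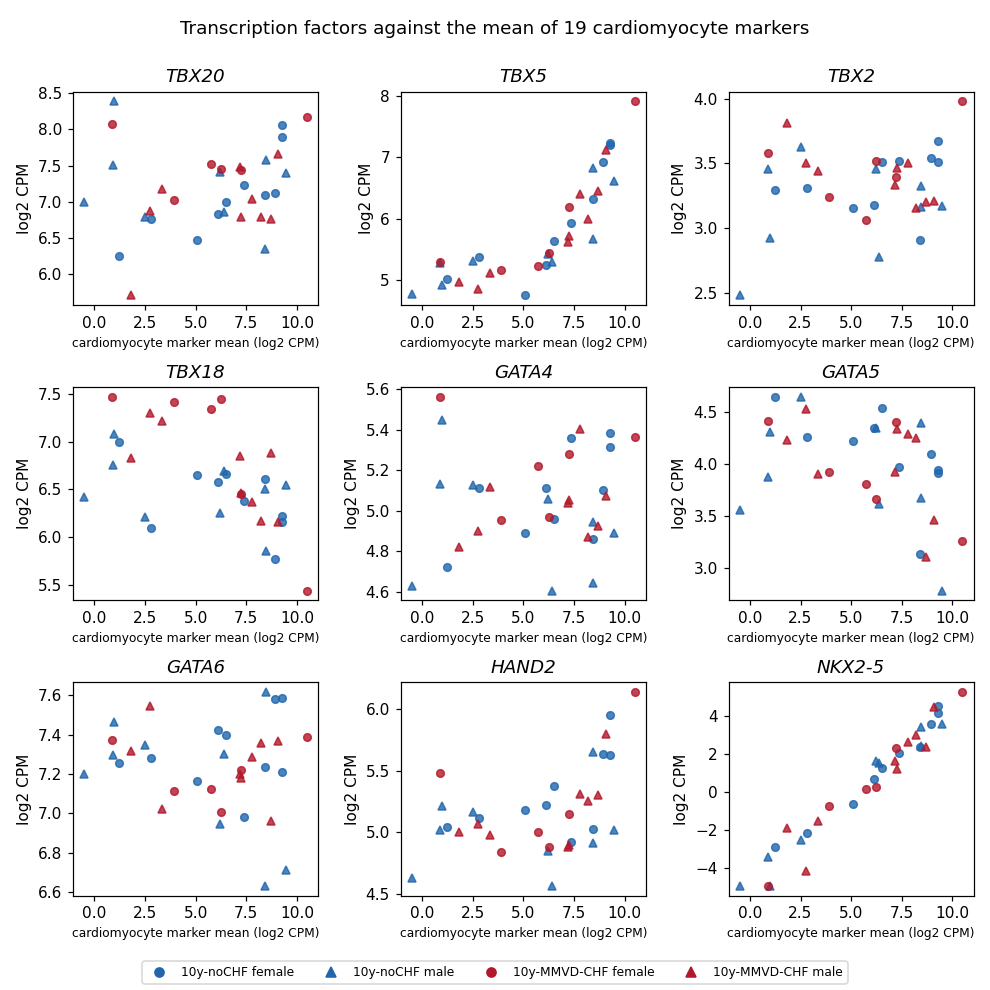
Log2 CPM of each factor against the mean log2 CPM of 19 cardiomyocyte markers, 1 point per dog (colours and shapes as in the plot of levels by group). NKX2-5 follows a line of slope 1.001, TBX5 bends upward at high marker means, TBX18 falls, and GATA4 and GATA6 show no slope that passed the test.

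How the factors varied together was described with Pearson correlations of log2 CPM over 34 dogs, after the means of the 4 groups of CHF status and sex were removed. All points share library, depth and muscle content, so no p is given. The highest of 36 pairs was TBX5 with NKX2-5 (r = 0.84), followed by TBX5 with HAND2 (0.75) and TBX20 with GATA4 (0.72). The most opposite were TBX18 with TBX5 (-0.75), NKX2-5 (-0.66) and HAND2 (-0.62). When the linear part of the cardiomyocyte marker mean was also removed, a step added after these values were seen, TBX5 with NKX2-5 was 0.34. TBX5 with HAND2 was then 0.78, TBX20 with GATA4 0.74 and TBX18 with TBX5 -0.58. Squared terms, which passed for TBX5, HAND2, TBX20 and GATA5, were not removed, so these values can still hold shared muscle content.

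**Figure D4:**
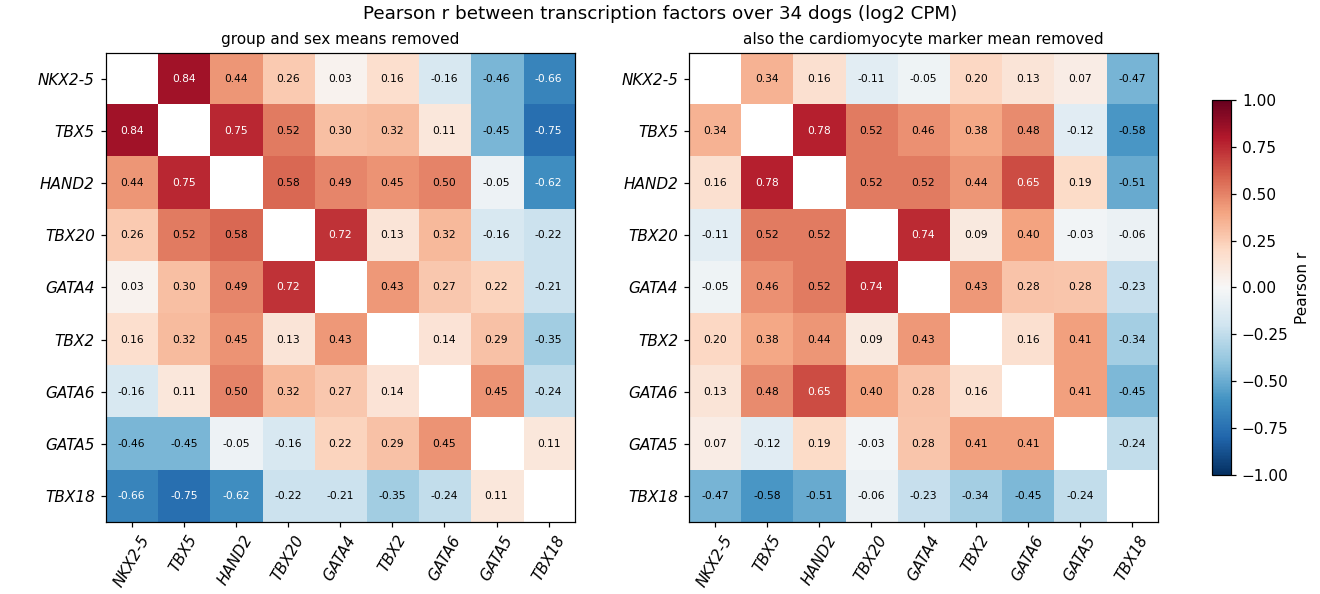
Pearson r of log2 CPM for each pair of factors over 34 dogs, from -1 (blue) to 1 (red). Left, with the group and sex means removed. Right, with the linear part of the cardiomyocyte marker mean also removed. The pair TBX5 and NKX2-5 goes from 0.84 to 0.34, and TBX20 and GATA4 goes from 0.72 to 0.74.

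The genes whose pattern over the dogs was most like each factor were found among 16171 features with a mean of at least 1 CPM. For NKX2-5 they were LDB3, NRAP and TRDN (r of 0.98 each), genes of the muscle Z-disc, the intercalated disc region and the calcium release unit. For TBX5 they were IDH3A (0.98), PDE4DIPP2 (0.97) and PFKM (0.97), of which IDH3A and PFKM encode enzymes of energy metabolism. For HAND2 they were SLX1A-SULT1A3, SLX1B-SULT1A4 (both 0.88) and SULT1A1 (0.87), features that overlap on the genome and share reads. For TBX18 they were CALD1 (0.89), which encodes caldesmon, AXIN2 (0.85), a target and brake of WNT signalling, and SNX18 (0.83).

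For TBX20 they were CILK1 (0.80), UTRN (0.79), which encodes utrophin, and PEG3 (0.78). The most opposite features to TBX20 were CXCL1 (-0.80), CXCL2 (-0.79) and CXCL3 (-0.79), chemokine genes whose features overlap and share reads, which were looked up after the values had been seen. For GATA4 they included PRPF8 (0.81) and SYMPK (0.80), for GATA5 SPTBN4 (0.86), CDK10 (0.83) and NRBP1 (0.83), and for GATA6 FAM166B (0.76), TTC21A (0.73) and TNRC6A (0.72). TBX2 had the lowest likeness, with CEP131 (0.75), HCFC1R1 (0.73) and CNKSR1 (0.71).

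Around the 9 factors, 64 other genes in 6 lists were followed, of which 59 passed the minimum sum. NKX2-3, NKX2-6, ISL1, IRX4 and BMP10 did not, with 0 to 76 counts over all dogs. None of the 59 was called between dogs with and without CHF by edgeR (0 against 0.118% of all features, with 6 at an unadjusted p below 0.05), and the median log2 fold change was 0.06. DESeq2 and limma voom each called 1, ALDH1A2, which makes retinoic acid and is an upstream signal in heart development. Of 19568 features DESeq2 called 15 higher and 49 lower with CHF, and limma voom 9 higher and 16 lower. The paper, which also used DESeq2 on these counts, already lists ALDH1A2 among its differentially expressed genes. ALDH1A2 had 0.628 to 4.58 CPM with a median of 2.30 in 10y-noCHF and 0.0728 to 3.26 CPM with a median of 0.595 in 10y-MMVD-CHF. The edgeR log2 fold change was -1.34 (SE 0.35, adjusted p = 0.284), and it was called without CAV1047, the highest of the dogs with CHF (-1.67, adjusted p = 0.0341). The next in that list was BMPR2, a BMP receptor (0.12, SE 0.06, adjusted p = 0.778).

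Among 16 factors of cushion and valve mesenchyme the smallest p was that of TCF21, a factor of epicardium and fibroblasts, with -0.46 (SE 0.13, adjusted p = 0.375). The second was NFATC1, a factor of the endocardial lining that valves need, with -0.31 (SE 0.10, adjusted p = 0.446). NFATC1 had 84.5 to 167 CPM with a median of 111 in 10y-noCHF and 61.5 to 118 CPM with a median of 94.1 in 10y-MMVD-CHF. TCF21 had medians of 17.02 and 12.2 CPM. In the other 4 lists the 2 genes with the smallest p had adjusted p-values of 0.696 or more, namely GATA3 and TBX15, HOPX and PRDM16, IRX3 and NR2F1, and VCAN and GJA1.

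On the cardiomyocyte marker mean 43 of the 59 genes were called, 20 higher and 23 lower, beside 37.7% of all features. None of the called list genes changed sign with RLE, upper-quartile or DESeq2 scaling. Relatives of the 9 split, with HAND1 (slope 0.70) and TBX3 (0.23) rising and GATA3 (-0.12) and TBX4 (-0.16) falling. Of 12 partners and cofactors 7 rose and 2 fell, led by CASZ1 (0.40), MYOCD (0.29), MEF2A (0.08) and SRF (0.06). Upper-quartile scaling gave 6 and 4 here, and 2 and 10 for the cushion factors.

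Of 16 cushion and valve mesenchyme factors 3 rose and 10 fell. WT1, a factor of epicardium and mesothelium, rose by 0.32, and TWIST1 (-0.10) and SNAI2 (-0.09), factors of mesenchyme, fell. Of 5 chamber identity factors 3 fell, NR2F2 (-0.07), HEY2 (-0.06) and NR2F1 (-0.04). Of 11 target genes 6 rose and 3 fell, and those that rose included HCN4, the pacemaker channel (1.06), NPPA, the atrial natriuretic peptide (1.14), and GJA5, a gap junction protein (0.62). Among 8 upstream signals BMP4 (-0.10) and BMP2 (-0.05) fell, and FGF10 (0.23) and ALDH1A2 (0.14) rose.

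**Figure D5:**
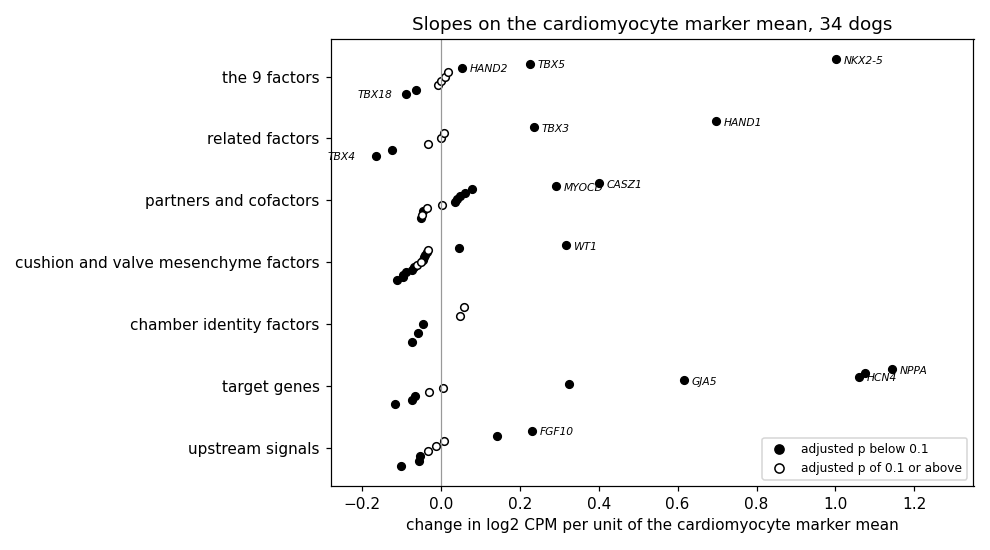
Change in log2 CPM per unit of the cardiomyocyte marker mean for the 9 factors and for each list of related genes, 1 point per gene, with 2 list genes left out (filled, edgeR adjusted p below 0.1; open, 0.1 or above). NKX2-5 at 1.001 lies near the target genes HCN4 and NPPA, TBX5 lies near TBX3, and most cushion factors lie below 0.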

How the data were processed

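Mitral valve RNA (poly-A selected) of 34 dogs was sequenced. The authors mapped the reads to canFam4/UU_Cfam_GSD_1.0 using STAR. The deposited values are raw counts from featureCounts 2.0.3 over 2165 canine RefSeq features and 21603 aligned human XenoRefSeq features. Per the file headers, reads of a pair were counted separately, without strand, and a read was given to every feature it overlapped. Of 35 count columns, 1 belonged to no sample used here.

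The 19568 features that reached 100 counts in total were tested with edgeR 4.0.16 (TMM, quasi-likelihood) in R 4.3.3, with sex in the model (1 alternative left it out) and calling an adjusted p (Benjamini-Hochberg over all of them) below 0.1. Standard errors were derived from the test statistic. Log2 CPM used a prior count of 2. DESeq2 1.42.0 and limma 3.58.1 voom were alternatives, and the code was tested on simulated data. The 9 factors and all lists were chosen with earlier results of these data known. Named list genes are up to 4 called genes by smallest p, otherwise the 2 with the smallest p, and for likeness the 3 highest r, apart from a few that are not reported here. CPM depend on composition, so muscle RNA lowers the share of other genes. Intervals give the uncertainty of a fold change or slope, judged from the spread between dogs, and not that spread itself.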

Additional observations from a re-analysis of the deposited data

Results flagged for a closer look

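Each factor was searched for single distant dogs within each combination of CHF status and sex, on log2 CPM (36 checks, of which chance would give about 1.8), by the gap to the nearest dog as a share of the whole range. There were 4 such dogs. TBX20 in CAV614, a 10y-MMVD-CHF male, had 52.2 CPM against 108 CPM in the next lowest male (0.540 of the range, critical value 0.493, n = 9). TBX5 in CAV1047, a 10y-MMVD-CHF female, had 241 CPM against 73.0 CPM in the next highest (0.626, critical value 0.625, n = 6). GATA5 in CAV1732, a 10y-noCHF female, had 8.78 CPM against 14.998 CPM (0.512, critical value 0.466, n = 10). HAND2 in CAV373, a 10y-MMVD-CHF male, had 55.7 CPM against 39.6 CPM (0.533, critical value 0.493, n = 9). The cardiomyocyte marker mean was 1.82 in CAV614, 10.5 in CAV1047, 8.41 in CAV1732 and 9.09 in CAV373.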

How the results depend on the processing

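The numbers of factors called between CHF groups (0), between sexes (0), for the interaction (0) and on the marker mean (5) were the same without any 1 of the 34 dogs and in each scaling, filter and tool tried. On the marker mean 4 were called with ventricular markers alone and 4 (3 higher, 1 lower) without CAV614 and CAV1047. In contrast, 10y-noCHF dogs alone gave 2 and 10y-MMVD-CHF dogs alone 3, with 19 and 15 dogs. Fewer features were called in these fits too. Ventricular markers alone called 3267 higher and 2831 lower of 19568 features. Without CAV614 and CAV1047, 3257 were called higher and 2753 lower of 19513. In 10y-noCHF dogs alone 4122 of 19031 features were called, and in 10y-MMVD-CHF dogs alone 4812 of 18656. The 59 list genes gave 1 in place of 0 for CHF with the marker mean as covariate, with DESeq2, with limma voom and without CAV614 and CAV1047, and 0 to 1 with single dogs left out. All features called for CHF numbered 23, with 64 in DESeq2, 13 without the sex term and 8 (without CAV1519) to 28 with single dogs left out. For squared terms 4 factors and 4263 features passed, and 2 factors and 1604 higher and 358 lower features without CAV614 and CAV1047. Of calls on the marker mean over all features 50.8% were higher, 37.99% with upper-quartile scaling and 60.9% and 60.3% within 10y-noCHF and 10y-MMVD-CHF.

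Signs turned only for values that passed no test. With the marker mean as covariate the log2 fold changes for CHF were -0.015 for TBX5 and -0.032 for NKX2-5. Without CAV614 and CAV1047 they were -0.10 for TBX5, -0.011 for HAND2 and -0.40 for NKX2-5, and NKX2-5 between sexes was -0.15. Slopes of GATA4 were 0.0010 (RLE), 0.0040 (filterByExpr), 0.0011 (DESeq2), 0.0014 (limma voom) and 0.0046 (10y-MMVD-CHF alone). TBX20 had slopes of -0.0059 without the 2 dogs and -0.0058 with ventricular markers, and TBX2 -0.0094 in 10y-MMVD-CHF alone. Without the 2 dogs, squared terms were -0.0047 for TBX2 and -0.013 for NKX2-5, and differences of slope between groups were -0.074 for TBX20, -0.018 for GATA4, -0.0035 for GATA6, -0.013 for HAND2 and 0.11 for NKX2-5. The cause was not tested.

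With single dogs left out, log2 fold changes for CHF ranged from -0.041 to 0.15 for TBX20, -0.14 to 0.28 for TBX5, -0.11 to 0.0027 for GATA5, -0.054 to 0.0099 for GATA6, -0.015 to 0.13 for HAND2 and -0.49 to 0.59 for NKX2-5. Between sexes they ranged from -0.012 to 0.10 for GATA5 and -0.12 to 1.01 for NKX2-5, and the interaction from -0.96 to 0.042 for TBX5 and -2.61 to 0.46 for NKX2-5. Slopes ranged from -0.0012 to 0.018 for TBX2 and -0.0063 to 0.0094 for GATA4. No paired analysis was possible because each dog has its own number and belongs to 1 group. NKX2-5 was measured coarsely in dogs with few muscle markers, with 0 to 18 counts in the 10 dogs with the lowest marker means. The lowest total count, 46185256, was that of CAV1047, which had the most NKX2-5 counts (1520).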
